A study of Homo sapiens with 4 samples.

Results

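The expressed long intergenic noncoding RNAs (lincRNAs) of these libraries were the genes of the biotype lincRNA, outside chromosomes X, Y and MT, with 200 or more reads in 1 or more of the 4 libraries. There were 112 of them among 7629 lincRNAs and 58735 genes in the tables. The cells were MHCC-97H, an established metastatic hepatocellular carcinoma (HCC) line, and the study asked how migrasomes (Migs), vesicles that migrating cells leave on their retraction fibres, act on them. One library came from cells given PBS, and the others came from cells given 2 μg of Migs, all for 24 h. Normo-Migs came from MHCC-97H donor cells kept in normoxia, hypo-Migs from such donors kept in hypoxia, and CD147KO-Migs from donors kept in hypoxia that lacked CD147, the membrane glycoprotein basigin. The knockout was in the donors of the Migs, and the labels name no deletion in the cells that were sequenced.

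A lincRNA is transcribed from its own start site between protein-coding genes, is usually spliced and polyadenylated, and is not translated into a known protein. Some stay in the nucleus and build bodies there, some act in the cytoplasm by holding proteins, and some are the precursors from which microRNAs (miRNAs) or small nucleolar RNAs are cut. Several have been studied in liver cancer, among them UCA1, PVT1, CRNDE and the miRNA host MIR22HG.

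Each condition had 1 library, so the spread between cultures is unknown, and no difference below was tested. A library took 33882496 to 40285223 reads on genes. Reads were scaled by TMM to counts per 1000000 reads on genes (CPM), which compare 1 gene between libraries. FPKM, which the authors also divided by gene length, compare genes with each other. The library labelled PBS stood apart from the 3 Mig libraries. There were 251 genes with at most 3 reads in it and at least 100 in every Mig library, and 0 such genes for any other library. Mitochondrial genes took 2.69% of its reads and 5.00% to 5.16% of those of the Mig libraries. Of 10 hepatocyte markers, ALB, APOB, TTR and AFP had 0 reads in all 4 libraries, and the 10 markers summed to 4.66 CPM with PBS and 20.8 to 28.5 CPM with Migs. Most of the latter was FGB, with 0, 561, 827 and 832 reads in the order PBS, normo-Migs, hypo-Migs and CD147KO-Migs (the order of all lists of 4 values here), whereas SERPINA1 had 25, 2, 9 and 10. HNF4A was read in all 4 libraries, with 134, 146, 246 and 141 reads, or 3.88, 4.29, 6.13 and 4.03 CPM. It made up most of the sum with PBS. The epithelial markers KRT8, KRT18, EPCAM and CDH1 summed to 4140 CPM with PBS and 5587 to 6618 CPM with Migs, and CDH1 had 0 reads with PBS. Markers of fibroblasts summed to 21.2 CPM with PBS and 106 to 108 CPM with Migs, those of endothelial cells to 3.42 and 4.34 to 5.51 CPM, and those of leukocytes to 0.637 and 1.44 to 2.51 CPM. Most of the fibroblast sum was COL1A1, with 681, 3551, 4017 and 3472 reads. DCN and LUM also had fewer reads with PBS, whereas COL3A1 had 27, 14, 27 and 20 and COL1A2 had 2, 0, 0 and 0. Other single markers did not all follow the sums either, as the endothelial PECAM1 had 16, 118, 146 and 131 reads and CDH5 had 84, 30, 72 and 59. The part of these differences in the lincRNA results was not tested. The 3 Mig libraries are therefore compared with each other without PBS, and each PBS value is called that of the library labelled PBS.

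The 112 lincRNAs were spread over 22 chromosomes, with most on chromosomes 12 and 19 (10 each). All 112 had the coordinates and the biotype given to them in GENCODE release 29, on GRCh38. Of their symbols, 30 were LINC numbers, 38 were clone-based names and 44 were others. The median summed exon length was 3337 bases, with a range of 342 to 22767, against 1463 for the other 1062 lincRNAs with at least 10 reads and 5376 for protein-coding genes with the same 200-read minimum. In 37 lincRNAs the exons formed a single block. The span of 62 overlapped that of another gene and that of 50 overlapped none, and 25 overlapped a protein-coding gene. How reads in overlaps were assigned, and whether strand was used, was not given in the sources used here, so the reads of those 62 are uncertain. AC245041.1, AC245041.2 and the gene NPY4R2 overlap on chromosome 10, and CYTOR and MIR4435-2HG each hold a copy of the same miRNA, so reads of these pairs may have been split or shared.

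The minimum of 200 reads was reached by 89 lincRNAs in the library labelled PBS, by 78 with normo-Migs, by 92 with hypo-Migs and by 78 with CD147KO-Migs, and by 58 in all 4 libraries. It was reached only with PBS by 16, and by 23 in Mig libraries only. Just inside it were AC006504.5, with 202, 141, 197 and 165 reads, AC055713.1 with 161, 151, 202 and 191, and MIR29B2CHG with 174, 172, 173 and 204. Just outside it were CYP4F26P with 198, 183, 161 and 149 reads, AP003392.4 with 197, 189, 182 and 166, and LINC00909 with 197, 148, 108 and 129. These levels were nearly continuous across the minimum.

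NEAT1, MALAT1 and NORAD took a large share of the lincRNA reads. The 112 lincRNAs together took 0.341% of the reads with PBS (95% Wilson interval 0.339% to 0.343%), 0.232% (0.230% to 0.233%) with normo-Migs, 0.246% (0.244% to 0.247%) with hypo-Migs and 0.240% (0.238% to 0.241%) with CD147KO-Migs. Intervals here cover counting error only, and in such bulk RNA fewer cells that hold an RNA and less of it per cell cannot be told apart. NEAT1 alone made up 38.8% of these reads with PBS and 23.6% to 24.9% with Migs. Without NEAT1 the share was 0.209% with PBS and 0.177% to 0.185% with Migs. NEAT1, MALAT1 and NORAD together made up 55.1% of lincRNA reads with PBS and 46.6% to 48.6% with Migs.

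Per length, the levels of the lincRNAs lay below those of protein-coding genes. Their mean FPKM over the 4 libraries had a median of 2.56 and a range of 0.268 to 53.3, against a median of 7.54 for the 10610 protein-coding genes with the same minimum of reads. The mean was under 1 FPKM in 17 lincRNAs and over 10 FPKM in 14. The highest was NORAD, a cytoplasmic RNA known for keeping chromosomes stable in dividing cells, with 50.6, 56.1, 54.5 and 51.7 FPKM. NEAT1, the scaffold of paraspeckles, followed with 56.9, 24.2, 26.8 and 25.9 FPKM, and PICSAR, described in squamous skin carcinoma, with 51.9, 27.2, 24.1 and 24.8 FPKM. In FPKM, NEAT1 was the highest lincRNA in the library labelled PBS and NORAD was the highest in each Mig library. SNHG19, a short snoRNA host with an exon length of 342 bases, had 35.5, 28.2, 26.9 and 31.8 FPKM. MALAT1, the abundant RNA of nuclear speckles, had 30.9, 27.9, 32.7 and 27.4 FPKM. AC245041.1 had 16.2, 30.7, 32.8 and 32.3 FPKM. The snoRNA hosts SNHG8, SNHG4 and SNHG15 followed, with 17.9, 21.4, 19.9 and 23.0 FPKM for SNHG8. SNHG4 had 9.63, 21.3, 22.3 and 22.8 FPKM and SNHG15 had 11.1, 11.9, 12.2 and 11.7 FPKM. UCA1, ninth by this mean, had 30.1, 6.5, 6.77 and 4.58 FPKM. Of these 10, NORAD, SNHG8, SNHG15, SNHG19 and MALAT1 differed little among all 4 libraries, and the others were set apart mainly by the library labelled PBS. mRNA was selected with poly-T beads, so RNAs or isoforms without a poly(A) tail, such as the long form of NEAT1, may be read incompletely.

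The first question of the design was whether hypo-Migs differ from normo-Migs and from CD147KO-Migs in what they do to the recipient cells. The lincRNAs had nearly the same levels in the 3 Mig libraries. With hypo-Migs against normo-Migs, 0 of 112 were at least 2-fold higher, where 0.125% of the 11199 genes with the same chromosomes and read minimum and 5.19% of all 19895 genes with at least 10 reads were. One lincRNA was at least 2-fold lower, AC105460.1, against 0.134% of the genes with the read minimum and 4.15% of all genes. Against CD147KO-Migs, 0 were higher with hypo-Migs (0.134% and 4.78% of the same gene sets) and 0 were lower (0.0893% and 4.34%). Between normo-Migs and CD147KO-Migs, AC105460.1 was higher with normo-Migs (0.116% and 4.73%), and LINC00896 and AL365181.2 were lower (0.143% and 4.96%). The larger shares over all genes include genes of few reads, whose ratios move by counting error alone.

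The few lincRNAs past 2-fold between Mig libraries had few reads there. AC105460.1 had 212, 17, 5 and 6 reads, which are 6.14, 0.499, 0.125 and 0.171 CPM. With hypo-Migs its ratio to normo-Migs was 0.25 (95% exact interval 0.0720 to 0.705). LINC00896 had 249, 6, 12 and 18 reads, with a ratio of normo-Migs to CD147KO-Migs of 0.343 (0.111 to 0.911). AL365181.2 had 949, 61, 101 and 131 reads, and its ratio of normo-Migs to CD147KO-Migs was 0.479 (0.347 to 0.655). All 3 entered the set through the library labelled PBS and lay under 200 reads in every Mig library.

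Across the 112, the range of the 3 Mig libraries had a median of 0.25 on the log2 scale of CPM with a prior count of 2. It was under 0.5 in 101 and at least 1 in 3. The median log2 difference was 0.05 for hypo-Migs against normo-Migs, -0.03 for hypo-Migs against CD147KO-Migs and -0.06 for normo-Migs against CD147KO-Migs, and over the genes with the read minimum it was -0.01, -0.00 and 0.01. For hypo-Migs against normo-Migs the central 90% of lincRNAs lay between -0.32 and 0.45, against -0.24 and 0.27 for those genes. The exact interval of the ratio excluded 1 in 21 lincRNAs that were higher with hypo-Migs than with normo-Migs (18.6% of the genes with the read minimum) and in 14 that were lower (22.9%). Against CD147KO-Migs these counts were 20 higher (20.5%) and 21 lower (21.3%), and for normo-Migs against CD147KO-Migs 10 higher (22.4%) and 21 lower (18.9%). As shares of the 112 these are 18.8%, 12.5%, 17.9%, 18.8%, 8.93% and 18.8%. The intervals are not adjusted for the number of genes and contain no spread between cultures. These shares and the central 90% also depend on the reads per gene, in which the lincRNAs and the genes with the read minimum were not matched.

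**Figure D1:**
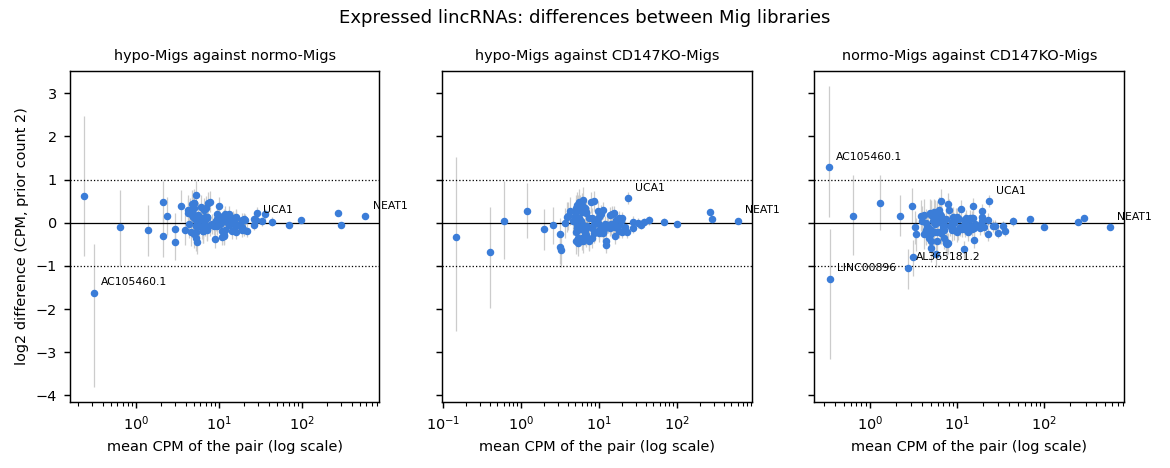
Differences between the Mig libraries for the 112 expressed lincRNAs. Each point is 1 lincRNA, with the mean CPM of the pair on the horizontal log axis and the log2 difference (CPM with a prior count of 2) on the vertical axis, grey bars are 95% exact intervals of the read ratio, and dotted lines mark 2-fold. Only AC105460.1, LINC00896 and AL365181.2 lie past a dotted line, and UCA1 lies above 0 in both panels with CD147KO-Migs as the second library.

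Among lincRNAs of many reads, UCA1 was the clearest case of a level that was alike with normo-Migs and hypo-Migs and lower with CD147KO-Migs. UCA1, a cytoplasmic RNA studied in bladder and liver cancer, had 4315, 928, 1138 and 672 reads, or 125, 27.2, 28.4 and 19.2 CPM. The ratio of hypo-Migs to CD147KO-Migs was 1.48 (95% exact interval 1.34 to 1.63), that of normo-Migs to CD147KO-Migs was 1.42 (1.28 to 1.57), and that of hypo-Migs to normo-Migs was 1.04 (0.954 to 1.14). UCA1 overlaps LINC01764, and part of its reads may belong to that gene. DUBR lay the other way, with 117, 326, 412 and 516 reads. Its ratio of hypo-Migs to CD147KO-Migs was 0.697 (0.611 to 0.795) and that to normo-Migs was 1.07 (0.925 to 1.24). MALAT1 had 9431, 8460, 11700 and 8543 reads, and was higher with hypo-Migs than with normo-Migs by a ratio of 1.17 (1.14 to 1.21) and than with CD147KO-Migs by 1.19 (1.16 to 1.23). NEAT1 had a ratio of 1.11 (1.09 to 1.13) for hypo-Migs to normo-Migs and of 1.03 (1.02 to 1.05) for hypo-Migs to CD147KO-Migs. The largest log2 difference of hypo-Migs over normo-Migs, 0.65, was that of AL391244.3, named after its values were seen. It had 229, 142, 263 and 164 reads and a ratio of 1.57 (1.28 to 1.94). Each of these ratios is under 2-fold.

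The second comparison was that of the library labelled PBS with the 3 Mig libraries. It is given as the distance of PBS to the nearest Mig library, so that a lincRNA counts only if PBS lay at least 2-fold outside all 3. This held for 34 lincRNAs, 19 with PBS above (17.0%) and 15 with PBS below (13.4%). Among genes with the read minimum the shares were 4.72% above and 10.4% below, and among all genes with at least 10 reads 7.1% and 14.2%. Neither reference was matched to the lincRNAs in reads per gene, so these differences cannot be read as particular to lincRNAs. No Mig library lay 2-fold outside the other libraries in any lincRNA. Among genes with the read minimum that was so in 0.0179% above and 0.0179% below in the normo-Migs library, 0.0357% and 0.0179% in the hypo-Migs library, and 0.0446% and 0.0179% in the CD147KO-Migs library. Among all genes the shares were 0.854% and 1.29%, 1.01% and 1.12%, and 0.9% and 1.19%. The rule that chose the lincRNAs bears on these counts. Of the 19 with PBS above, 10 reached 200 reads in the PBS library only, and of the 15 with PBS below, 12 reached it in Mig libraries only, so the choice of lincRNAs favoured such differences without fixing a 2-fold one. With a mean of at least 200 reads over the 4 libraries as the rule, a choice made after the data were seen, 12.0% of 83 lincRNAs had PBS above and 10.8% had it below, against 3.61% and 9.54% of the 10605 genes with that mean. This rule also uses the reads compared here, and many reads with PBS alone can bring a lincRNA past it. These shares are therefore not free of the choice either.

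**Figure D2:**
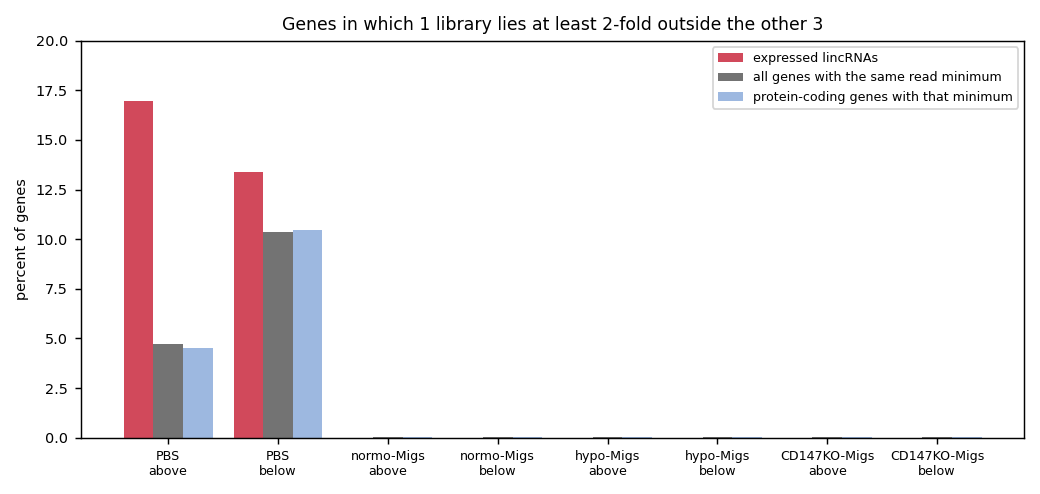
Percent of genes in which 1 library lies at least 2-fold above or below each of the other 3, for the 112 expressed lincRNAs (red), all genes with the same read minimum (grey) and the protein-coding genes among them (blue). The library labelled PBS lies above in 17.0% of lincRNAs and 4.72% of all such genes, and the bars of the Mig libraries are at or near 0. The sets were not matched in reads per gene.

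PBS was the highest library in 56 of the 112 (50%, against 44.4% of genes with the read minimum) and the lowest in 43 (38.4%, against 45.3%). The median log2 difference from PBS was -0.14 in the normo-Migs library, -0.12 in the hypo-Migs library and -0.09 in the CD147KO-Migs library. These 3 comparisons share the PBS library.

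**Figure D3:**
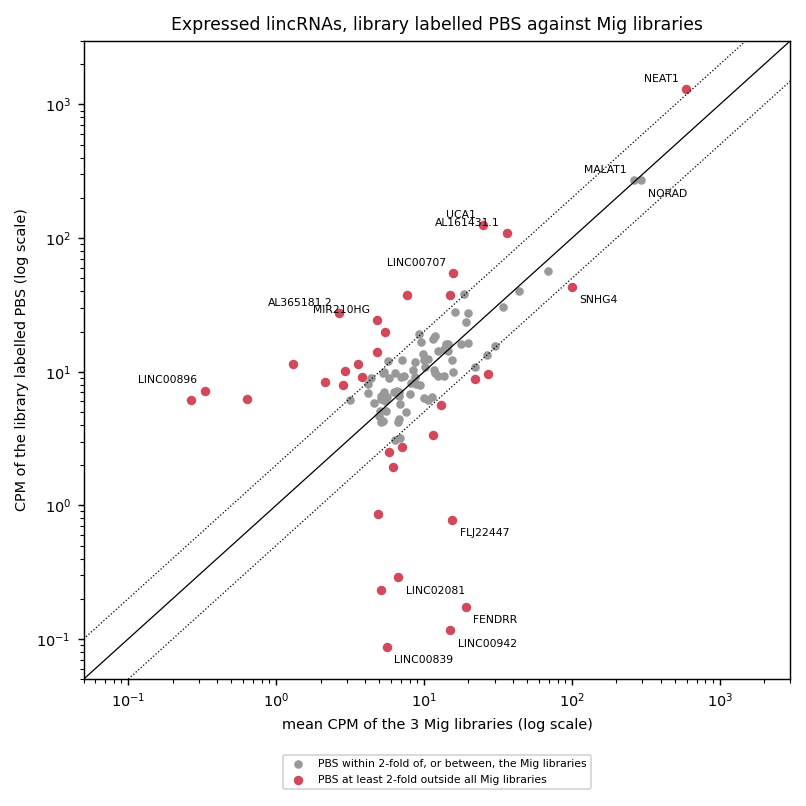
CPM of the library labelled PBS against the mean CPM of the 3 Mig libraries for the 112 expressed lincRNAs, both on log axes. The solid line marks equal levels, dotted lines mark 2-fold, red points are the 34 lincRNAs with PBS outside all Mig libraries, and LINC00839, with 0 reads in PBS, is drawn at the level of 3 reads. LINC00839, LINC00942 and FENDRR lie farthest below the line.

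In 6 lincRNAs the library labelled PBS had almost none of the RNA that every Mig library held. LINC00839, at chr10:42475543-42495336 on the plus strand, had 0, 203, 227 and 186 reads. A count of 0 allows up to 3 reads, or 0.0869 CPM, and against that floor of 1 library the lowest Mig library was at least 61.1-fold higher. LINC00942, at chr12:1500525-1504424 on the plus strand, had 4, 590, 596 and 461 reads, or 0.116, 17.3, 14.8 and 13.2 CPM. Its nearest Mig library was 114-fold higher than PBS (44.1 to 419). FENDRR, at chr16:86474529-86509099 on the minus strand, is transcribed away from FOXF1, a forkhead factor of mesenchyme, and is known for its part in heart and body wall development. It had 6, 724, 759 and 616 reads, or 0.174, 21.2, 18.9 and 17.6 CPM, and the nearest Mig library was 101-fold higher (46.2 to 277). LINC02081 had 10, 225, 244 and 261 reads, with a ratio of 21.0 (11.2 to 44.3). FLJ22447, at 27, 528, 674 and 507 reads, had a ratio of 18.5 (12.6 to 28.4), and AP000924.1, at 8, 162, 208 and 188 reads, one of 20.5 (10.2 to 48.3). In each of these 6 the 3 Mig libraries lay close together and far from PBS.

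The other 9 with PBS below differed less. AL358334.2 had 30, 154, 209 and 171 reads, with the nearest Mig library 5.20-fold higher (3.50 to 7.97). DUBR, AC245041.2 and LINC00941 had ratios of 2.82, 2.73 and 2.62. LINC00941 had 67, 204, 297 and 178 reads, and its symbol stands for a pair of genes in the tables, of which this is ENSG00000285517. EPB41L4A-AS1, which holds a snoRNA and lies over the gene EPB41L4A, had 304, 696, 853 and 863 reads. SNHG4, another snoRNA host, was the most abundant of the 15, with 1489, 3265, 4040 and 3608 reads and a ratio of 2.22 (2.09 to 2.36). SNHG4 overlaps MATR3 and SIL1, so its reads are uncertain. LINC00342, LINC02593 and AC005840.2 made up the rest, with ratios of 2.30, 2.25 and 2.07.

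**Figure D4:**
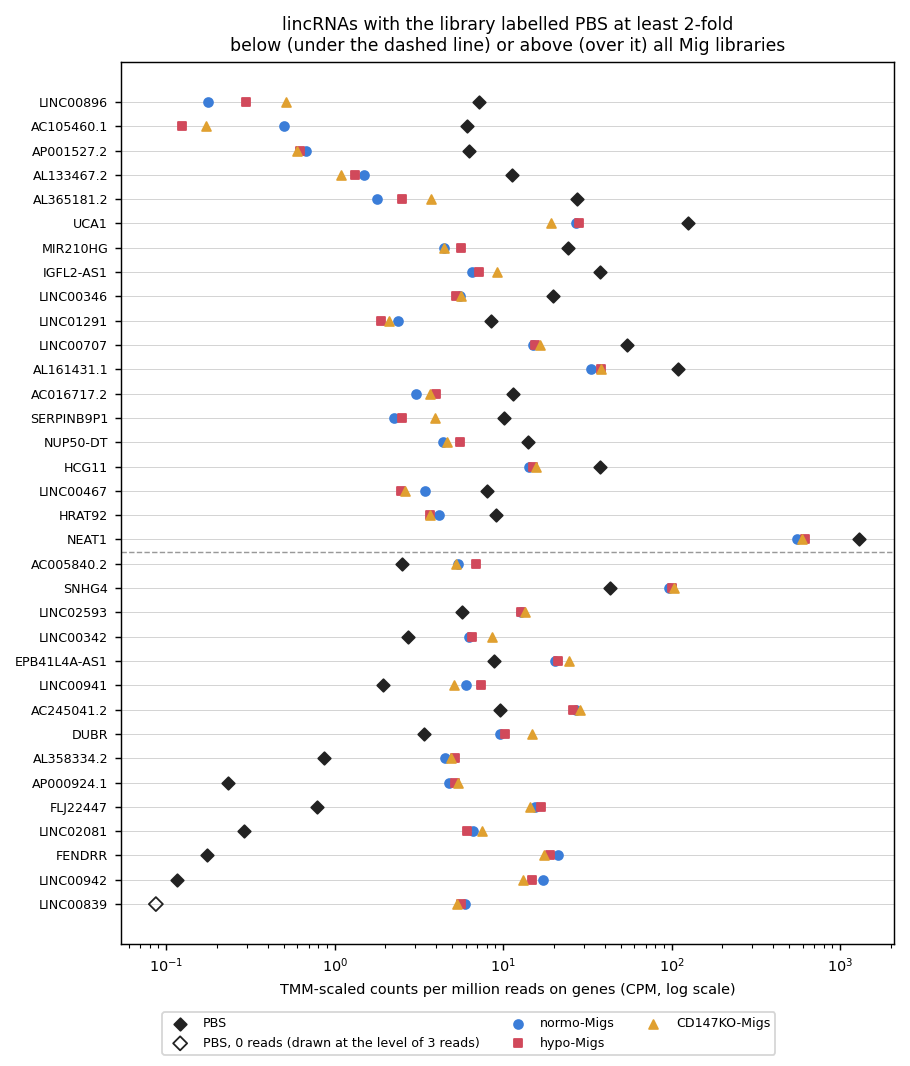
CPM in each library, on a log axis, for the 34 lincRNAs in which the library labelled PBS (black diamonds) lies at least 2-fold outside the 3 Mig libraries (coloured symbols), ordered by distance. CPM are not divided by gene length, so symbols are to be compared within a line. Through the choice of these 34, the Mig symbols of every line lie on 1 side of the diamond. The open diamond marks LINC00839, which had 0 reads with PBS.

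The promoters of the 3 lincRNAs farthest below with PBS and of MIR210HG, described next, are shown because these are the members with a reference promoter whose levels were farthest apart. RefSeq promoters on GRCh38.p14, which run from 250 bases before to 50 bases after a start site, were found within 1000 bases of the annotated start of 45 of the 112 lincRNAs. Capitals mark ACGTG, the core of the hypoxia response element, GTAAACA, a motif of FOXO and other forkhead factors, and TATAAA, the TATA box, on either strand. The sequences are of chr10:42475241-42475540 (plus strand), chr12:1500241-1500540 (plus strand), chr16:86508811-86509110 (minus strand, from a start 239 bases from the one in the tables) and chr11:568408-568707 (minus strand).
LINC00839: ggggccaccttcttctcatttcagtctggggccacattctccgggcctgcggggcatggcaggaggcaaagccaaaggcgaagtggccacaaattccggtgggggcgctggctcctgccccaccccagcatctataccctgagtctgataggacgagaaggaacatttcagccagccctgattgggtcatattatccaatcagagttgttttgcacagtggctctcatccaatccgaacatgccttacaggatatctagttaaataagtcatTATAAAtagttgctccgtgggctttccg
LINC00942: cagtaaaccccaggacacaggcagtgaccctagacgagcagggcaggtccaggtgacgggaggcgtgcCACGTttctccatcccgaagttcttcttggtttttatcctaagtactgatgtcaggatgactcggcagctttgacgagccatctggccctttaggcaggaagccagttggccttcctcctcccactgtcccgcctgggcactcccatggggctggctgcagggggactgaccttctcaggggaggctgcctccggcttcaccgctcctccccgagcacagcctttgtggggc
FENDRR: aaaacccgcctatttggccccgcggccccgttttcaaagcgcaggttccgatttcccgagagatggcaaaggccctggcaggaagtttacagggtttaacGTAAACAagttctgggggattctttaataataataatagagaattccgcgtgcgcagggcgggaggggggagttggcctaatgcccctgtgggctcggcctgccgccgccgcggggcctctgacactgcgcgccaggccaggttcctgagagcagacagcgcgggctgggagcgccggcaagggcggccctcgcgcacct
MIR210HG: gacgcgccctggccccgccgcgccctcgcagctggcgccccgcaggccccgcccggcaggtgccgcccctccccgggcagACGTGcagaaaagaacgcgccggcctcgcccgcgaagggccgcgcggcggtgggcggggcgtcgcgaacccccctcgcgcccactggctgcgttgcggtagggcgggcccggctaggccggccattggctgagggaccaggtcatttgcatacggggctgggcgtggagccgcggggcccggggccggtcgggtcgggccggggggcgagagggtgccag

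The promoters of LINC00942 and MIR210HG each held 1 ACGTG, starting 182 and 170 bases before the RefSeq start site. FENDRR held 1 GTAAACA, 150 bases before the RefSeq start, and LINC00839 held 1 TATAAA, 23 bases after it. The RefSeq start lay 34 bases from the start in the tables for LINC00942 and 52 bases for LINC00839. The TATAAA of LINC00839 thus lies before the start in the tables. For FENDRR the RefSeq start lay 239 bases inside the gene of the tables. Its GTAAACA thus lies after the start in the tables. Of the 45 lincRNA promoters, 35.6% held ACGTG, against 21.4% of all 35116 promoters of the table. It was in 3 of 5 with PBS above, in 3 of 6 with PBS below and in 10 of the other 34. The E-box CANNTG was in 64.4% of the 45 and 68.7% of all, GTAAACA in 6.67% and 3.42%, and TATAAA in 6.67% and 11.5%. CACGTG holds both ACGTG and CANNTG. The median GC content was 62.3% in the 45 and 58.7% in all. A match of letters is a description of these windows and not a binding site.

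With PBS above, UCA1 and MIR210HG were among the best studied. UCA1 was 4.41-fold higher with PBS than with the nearest Mig library (4.13 to 4.71). MIR210HG, the host of miR-210 and a known target of hypoxia-inducible factors, lies at chr11:565660-568457 on the minus strand. It had 840, 151, 227 and 156 reads, or 24.3, 4.43, 5.66 and 4.45 CPM. PBS was 4.30-fold above the nearest Mig library (3.71 to 5.01), and hypo-Migs was 1.28-fold above normo-Migs (1.03 to 1.58) and 1.27-fold above CD147KO-Migs (1.03 to 1.57). IGFL2-AS1 had 1295, 224, 290 and 322 reads and a ratio of 4.08 (3.61 to 4.63).

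The farthest above were lincRNAs of low level with Migs. LINC00896, with 249 reads in PBS and 6 to 18 in the Mig libraries, had a ratio of 14 (8.70 to 24.1). AC105460.1 followed with 12.3 (7.51 to 21.5). AP001527.2, a single-exon RNA of 631 bases that starts 4 bases from the start of YAP1 on the other strand, had 217, 23, 25 and 21 reads and a ratio of 9.31 (6.05 to 15). AL133467.2 had 392, 51, 53 and 38 reads, with a ratio of 7.59 (5.66 to 10.4), and AL365181.2 one of 7.35 (6.12 to 8.89). LINC00346 had 680, 188, 211 and 196 reads and LINC01291 had 291, 81, 76 and 74, with ratios of 3.52 and 3.55. By the rule that picked them, the 3 Mig libraries lay below PBS in all of these. In LINC00896, AC105460.1 and AL365181.2 some pairs of Mig libraries were also past 2-fold from each other.

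NEAT1 was the most abundant lincRNA with PBS above. It had 44786, 18901, 24657 and 20812 reads, or 1298, 555, 614 and 594 CPM, and PBS was 2.11-fold above the nearest Mig library (2.08 to 2.15). It lies at chr11:65422774-65445540 on the plus strand, next to MALAT1 at chr11:65497688-65506516. MALAT1 had 273, 248, 291 and 244 CPM, so PBS lay among the Mig libraries for MALAT1 and outside them for NEAT1. Of 10 paraspeckle proteins, which bind NEAT1, all were measured, and 1 was past 2-fold, NONO, with PBS below. This is near the share of genes with the read minimum that had PBS below, 10.4%, and 4.72% had it above. Their CPM summed to 3448 with PBS and 3369 to 3494 with Migs. The other lincRNAs with PBS above were LINC00707, AL161431.1, AC016717.2, SERPINB9P1, NUP50-DT, HCG11, LINC00467 and HRAT92, with ratios of 3.30, 2.85, 2.87, 2.57, 2.56, 2.40, 2.32 and 2.19.

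Of the hand-written groups, the hosts of small RNAs, which were picked by symbol, were the largest, with 14 of the 112. Of these, MIR210HG had PBS above, SNHG4 and EPB41L4A-AS1 had PBS below, and the other 11 did not lie 2-fold outside. Among all 46 such hosts with at least 10 reads, of any biotype, PBS was above in 3 and below in 7, where 7.1% and 14.2% of all genes with at least 10 reads were. Mature miRNAs of the RefSeq table were matched inside 10 of the 112, namely MIR210HG, MIR22HG, MIR34AHG, MIRLET7BHG, MIR193BHG, MIR29B2CHG, MIR4458HG, MIR4435-2HG, CYTOR and MUC20-OT1, with 26 mature miRNAs of 22 seeds. NEAT1 and PVT1 also overlap miRNA genes, and these 2 and MUC20-OT1 are not among the 14 picked by symbol. The well-known arms are shown because they are what these hosts encode, with the seed (bases 2 to 8), which pairs with targets, in capitals. They are from RefSeq on GRCh38.p14.
miR-210-3p: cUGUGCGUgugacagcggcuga
miR-22-3p: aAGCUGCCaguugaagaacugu
miR-34a-5p: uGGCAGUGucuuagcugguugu
miR-193b-3p: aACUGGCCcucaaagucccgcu
miR-365a-3p: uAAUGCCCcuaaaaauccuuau
let-7a-5p: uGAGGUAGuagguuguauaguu
let-7b-5p: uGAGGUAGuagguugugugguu
miR-4458: aGAGGUAGguguggaagaa
miR-29b-3p: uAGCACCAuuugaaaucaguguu
miR-29c-3p: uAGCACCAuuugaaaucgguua
miR-4435: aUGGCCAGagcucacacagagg

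The seed GAGGUAG is shared by let-7a-5p and let-7b-5p of MIRLET7BHG and by miR-4458 of MIR4458HG. These hosts had different profiles. MIRLET7BHG had 493, 493, 624 and 473 reads, or 14.3, 14.5, 15.5 and 13.5 CPM, with PBS among the Mig libraries. MIR4458HG had 222, 374, 505 and 360 reads, and its nearest Mig library was 1.60-fold above PBS (1.35 to 1.90). The seed AGCACCA is shared by miR-29b-3p and miR-29c-3p, both inside MIR29B2CHG, whose level was 5.04, 5.05, 4.31 and 5.82 CPM. MIR34AHG, the host of the p53-induced miR-34a, had 12.3, 13.7, 14.5 and 18.1 CPM, and MIR22HG had 16.3, 17.5, 16.7 and 19.1 CPM. MIR193BHG had 581, 323, 425 and 305 reads, with PBS 1.59-fold above the nearest Mig library (1.40 to 1.81). Both copies of miR-4435 have the same sequence, and their hosts CYTOR and MIR4435-2HG had 607, 402, 412 and 428 reads and 560, 478, 549 and 509 reads. Host reads do not measure the mature miRNAs, which were not assayed.

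Of 25 long noncoding RNAs linked to HCC, 21 were in the tables, 20 had at least 10 reads and 8 were among the 112. Of these 8, UCA1 had PBS above and FENDRR had PBS below. Of all 20, PBS was above in 2 and below in 4, where 7.1% and 14.2% of all genes with at least 10 reads were. Between Mig libraries 0 of the 20 were past 2-fold in any pair, against 4.15% to 5.19% of those genes in each direction of a pair. PVT1, a neighbour of MYC, had 956, 666, 830 and 671 reads, with PBS 1.34-fold above the nearest Mig library (1.22 to 1.47). CRNDE had 319, 465, 530 and 504 reads, with the nearest Mig library 1.43-fold above PBS (1.24 to 1.65). CYTOR had PBS 1.44-fold above (1.27 to 1.63), and LINC00665 and MIR22HG had ratios to PBS whose intervals held 1. NORAD had 271, 302, 294 and 279 CPM, so PBS lay just below the Mig libraries.

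The hypoxia-linked list was written by hand with earlier results of these data known, so its counts are a description only. Of the lincRNAs, 4 are on it, MIR210HG, NEAT1, UCA1 and MALAT1, and PBS was above in the first 3. PBS was above in 17.0% of the 112 and in 4.72% of genes with the read minimum. With hypo-Migs against normo-Migs, none of these 4 was past 2-fold, where 0.125% of those genes were higher and 0.134% lower. The list held 8 genes, of which LUCAT1 and H19, of other biotypes, also had at least 10 reads. LUCAT1 had 292, 470, 593 and 500 reads, with a log2 distance of PBS of -0.70, and H19 had 798, 0, 27 and 2, past 2-fold for hypo-Migs against normo-Migs and with PBS above. Of the p53-linked list, NEAT1, MIR34AHG and PURPL were among the 112. PURPL, a p53-induced RNA that holds p53 levels down, had 969, 524, 680 and 564 reads, with PBS 1.66-fold above the nearest Mig library (1.5 to 1.83). Of 4 listed liver-enriched lincRNAs in the tables, 0 had 10 reads, and of the 7 imprinted or oncofetal RNAs 0 were among the 112. Proteins of nuclear RNA decay (7 measured) and RNA methylation and stabilising proteins (4) had 0 past 2-fold in any comparison. Of genes with the read minimum, 4.72% had PBS above and 10.4% had it below. Between Mig libraries, 0.0893% to 0.143% of them were past 2-fold in each direction of a pair.

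Some lincRNAs lay beside protein-coding genes whose reads stood in the same order. A protein-coding start within 1000 bases on the other strand was found for 18 of the 112 (16.1%), against 16.2% of the other 1062 lincRNAs with at least 10 reads. AP001527.2 and YAP1, the effector of the Hippo pathway, were such a pair. YAP1 had 38369, 4375, 5136 and 4393 reads, and its log2 distance of PBS above the nearest Mig library was 3.11, against 3.12 for AP001527.2. BCAN, the proteoglycan brevican, starts 386 bases from AL365181.2 and had 459, 56, 66 and 76 reads, with a log2 distance of 2.58 against 2.86. NUP50, beside NUP50-DT, had 5741, 3683, 4294 and 3663 reads and a log2 distance of 0.62, against 1.35 for NUP50-DT. PDGFA, beside HRAT92, had 661, 715, 766 and 757 reads, so that PBS was not outside it. Where strand was not used in counting, reads at such starts could fall to either gene.

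**Figure D5:**
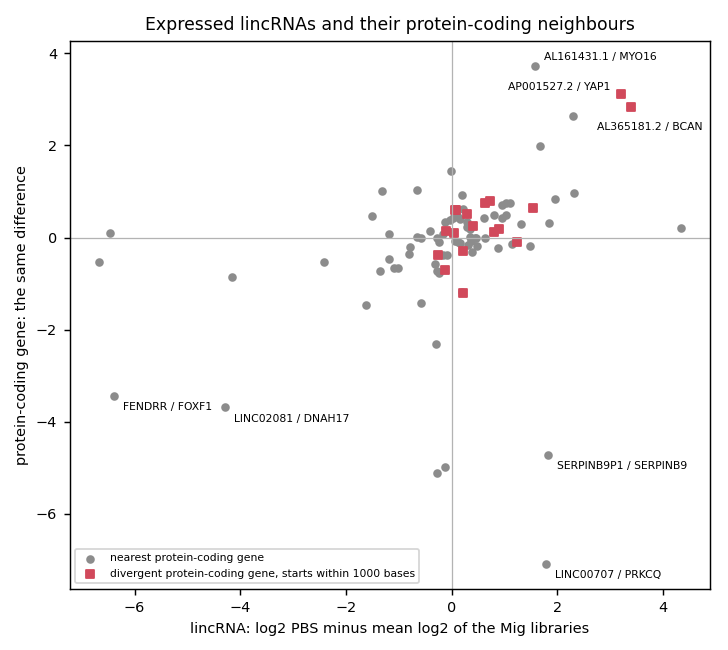
Log2 CPM of the library labelled PBS minus the mean log2 CPM of the 3 Mig libraries, for expressed lincRNAs (horizontal axis) and for a protein-coding gene beside each (vertical axis). Red squares are pairs that start within 1000 bases on opposite strands, and grey points are the nearest protein-coding gene of the other lincRNAs. AP001527.2 with YAP1 and AL365181.2 with BCAN lie at the upper right, FENDRR with FOXF1 at the lower left, and LINC00707 with PRKCQ and SERPINB9P1 with SERPINB9 at the lower right.

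Over the 92 lincRNAs whose nearest protein-coding gene had at least 10 reads, that gene also had PBS at least 2-fold outside in 10 of the 28 with PBS outside, 8 in the same direction and 2 in the opposite one. Of the 64 other lincRNAs it did so in 5. Among all genes with at least 10 reads, PBS lay at least 2-fold above all Mig libraries in 7.1% and below in 14.2%. FOXF1, 1428 bases from FENDRR, had 71, 720, 989 and 805 reads and a log2 distance of -3.33. DNAH17, near LINC02081, had 91, 1148, 1422 and 1221 reads and -3.65, and CAPRIN2, near LINC00941, had 479, 1283, 1601 and 1323 reads and -1.44. MYO16, near AL161431.1, had 385, 26, 36 and 25 reads and 3.56. In the opposite direction, PRKCQ had 0, 274, 309 and 237 reads beside LINC00707, and SERPINB9 had 0, 42, 74 and 43 beside SERPINB9P1. ERC1 beside LINC00942 had 3925, 3748, 4313 and 3573 reads, so this neighbour of a lincRNA nearly absent with PBS was alike in all 4 libraries. Across these 92 pairs, Pearson's r of the PBS-minus-Mig differences was 0.32 and Spearman's rho 0.49. For the 18 opposite-strand pairs they were 0.85 and 0.60, and without AP001527.2 and AL365181.2 they were 0.36 and 0.43 over 16. The points share the same 4 libraries, and genes are not independent replicates.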

How the data were processed

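RNA-seq was made from MHCC-97H cells under 4 conditions, 1 library each. The methods describe poly-T selection, and the labels name a SMARTER kit. The submitters' processing notes name CASAVA 1.8, fastp, HISAT2 2.0.5 and featureCounts 1.5.0-p3 with hg38. Strand handling was not given in the sources used here. The authors deposited raw counts per gene without normalization, and FPKM, which they scaled by gene length and by a constant of 0.994 to 1.02 times the reads on genes.

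From the counts, 19895 genes with at least 10 reads in 1 library were scaled by TMM (edgeR 4.0.16, R 4.3.3, prior count 2; factors 1.02, 0.986, 0.996 and 0.999 in the order PBS, normo-Migs, hypo-Migs and CD147KO-Migs). A difference was called at 2-fold. Quasi-likelihood tests have no residual degrees of freedom here, and the reads also chose the lincRNAs, so no p is given. Ratios carry 95% Clopper-Pearson intervals. The step was tested on simulated data. Python 3.11.15, numpy 2.4.6, pandas 2.3.3, scipy 1.17.1 and matplotlib 3.10.9 were used, with DESeq2 1.42.0 for 1 alternative.

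The lincRNAs and lists were chosen with earlier results of these data known. Named were the 10 of highest mean FPKM, up to 10 with PBS farthest above and 10 farthest below, those past 2-fold between Mig libraries (up to 5 in each direction), up to 3 farthest above or below for each Mig library, 3 on each side of the read minimum, and members of the hand-written lists. The other names in the list of 34, and neighbours, are given for completeness.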

Additional observations from a re-analysis of the deposited data

How the results depend on the processing

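Scaling by DESeq2 size factors or by total reads, a prior count of 0.25, no filter on low counts and, added after the data were seen, leaving out NEAT1, MALAT1 and NORAD moved none of the 14 shares of lincRNAs past 2-fold by more than 1.5 times. Of 182 shares under 13 alternatives, 159 stayed within that limit and 23 did not. Most of the 159 were shares of 0% that stayed at 0%, so this count says little about stability. With the main settings, the shares between Mig libraries rest on 0 to 2 lincRNAs. At 1.5-fold, the shares were 1.79% for hypo-Migs above normo-Migs, 1.79% for hypo-Migs below CD147KO-Migs, 5.36% for normo-Migs below CD147KO-Migs, 26.8% for PBS above, 20.5% for PBS below and 0.893% for normo-Migs below all others. From 100 reads, they were 0.448% for hypo-Migs below normo-Migs, 2.24% and 0.897% for hypo-Migs above and below CD147KO-Migs, and 0.448% for CD147KO-Migs below all others. From 500 reads, and likewise from a mean of 200 reads, which was added after the data were seen, they were 0% for hypo-Migs below normo-Migs and 0% for normo-Migs above CD147KO-Migs. With an assumed coefficient of variation of 0.2 these were 0% as well, as was normo-Migs below CD147KO-Migs. Without overlapping genes they were 0%, 0% and, for normo-Migs below CD147KO-Migs, 4.0%. With an exact binomial test added, normo-Migs above and below CD147KO-Migs were 0% and 0.893%. On the log2(FPKM + 0.1) scale, normo-Migs below CD147KO-Migs was 0%. Over the other alternatives PBS above ran from 12.0% to 20.5% and PBS below from 10.8% to 18.2%. No paired analysis was possible because each condition had 1 library. For the same reason no library could be left out within a condition. Ratios of lincRNAs with few reads in a library have wide intervals, and smaller differences were not detectable there.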

Other observations

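Below the 200-read minimum, 1062 lincRNAs had at least 10 reads in their highest library. PBS was at least 2-fold above all Mig libraries in 143 of these (13.5%) and below in 193 (18.2%), against 7.1% and 14.2% of all genes with at least 10 reads. That reference is not matched in reads. It includes the 11199 genes with the 200-read minimum, where the shares were 4.72% and 10.4%, so these differences cannot be read as particular to lincRNAs. AC006058.1 had 0, 174, 175 and 153 reads in the order PBS, normo-Migs, hypo-Migs and CD147KO-Migs, and C5orf17 had 77 reads with PBS and 0 in each Mig library. MIR9-3HG, a host of miR-9, had 2, 147, 167 and 151 reads.

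Among other long noncoding RNAs of the hand-written lists, some had levels in the library labelled PBS far from those of the Mig libraries, and the examples here were picked for that after their values were seen. GAS5, TUG1 and LINC00511, of the same lists, did not lie 2-fold outside. H19, the imprinted oncofetal RNA, had 798, 0, 27 and 2 reads. KCNQ1OT1, the antisense RNA of the imprinted KCNQ1 locus, had 0, 160, 190 and 180 reads. HOTTIP, an RNA of the HOXA cluster, had 800, 47, 74 and 76 reads. MEG3, an imprinted lincRNA below the minimum, had 0, 53, 65 and 30 reads. SNHG5, a snoRNA host, had 545, 2329, 2748 and 2302 reads.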
